A study of Homo sapiens with 30 samples.

Results

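Of 28803 bins of 100 kb on chromosomes 1 to 22 (hg19), 746 lay at the nuclear lamina in G2 and not in G1 in HCT116, a human colorectal carcinoma line. They were chosen from the deposited consensus lists of lamina-associated domains, 1 list per cell cycle stage. A bin counted as covered in a stage when at least 50% of it lay inside an interval of that stage, and the chosen bins were covered in G2 and not covered in G1. They span 74.6 Mb and make up 13.2% of the 5642 bins covered in G2. Of the 746, 177 (23.7%) were also covered in S and 569 (76.3%) were not.

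The nuclear lamina is a meshwork of lamin proteins beneath the inner nuclear membrane. Large stretches of chromatin, the lamina-associated domains, touch it; they are known as poor in genes, low in transcription and rich in repressive histone marks. Contacts are lost when the envelope breaks down at mitosis and are rebuilt in the daughter cells, so a domain map can differ with the stage at which cells are taken.

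All cells of the groups used here, HEK293FT and HCT116 alike, were transfected with a construct joining the peroxidase APEX2 to lamin B1, by means of Lipofectamine 2000. The HCT116 maps rest on streptavidin pull-down and input DNA from cells in G1, S and G2, with 2 replicates of each, combined by the authors into a single list per stage, so no replicate spread can be given for any bin. RNA was measured in asynchronous HEK293FT, a human embryonic kidney line, in 8 ribosome-depleted libraries, 2 each of the nuclear fraction, the cytosol, APEX-labelled lamina RNA without PFA (paraformaldehyde) in the label, here called native lamina, and the same with PFA, here called PFA lamina. Domains and RNA therefore come from different cell lines and, for RNA, from unsorted stages. Every library comes from cells given the fusion by transfection, and an unlabelled control library was not analysed here. Reads of LMNB1, the lamin B1 gene, were not alike between groups. They made up 0.32% and 0.30% of nuclear counts and 0.43% and 0.52% of cytosolic counts. For the PFA lamina these shares were 8.89% and 9.49%, and for the native lamina 8.60% and 2.96% (replicates 1 and 2 each). Whether these reads came from the fusion, and how they bear on the lamina comparisons, was not tested. The labels do not say whether replicates were separate cultures, so p-values measure the spread between these libraries.

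Total counts ran from 2321291 to 8557777 per library. Of 6 markers of HEK293-like cells, 4 had at least 20 counts in all libraries. Their list summed to between 103 and 447 CPM (library-scaled counts, TMM). Of 7 colon epithelium markers, 1 had at least 20 counts in all libraries, and the list summed to between 24.3 and 51.8 CPM. Only CDX1 and KRT20 of that list stayed at or below 3 counts in every library. PFA lamina replicate 1 stood apart from its own replicate: its log2 CPM correlated at 0.962 and 0.957 with the cytosolic libraries and at 0.924 with PFA lamina replicate 2. Counts of called genes are given with and without it. In bulk libraries, fewer cells of a type and less RNA per cell cannot be told apart.

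The sequences of 4 gene starts inside the chosen bins are printed because the RNA results turn on these genes. MKI67 encodes Ki-67, the proliferation antigen that coats mitotic chromosomes. HSPB8 encodes a small heat shock chaperone, NDUFS6 a subunit of mitochondrial complex I, and GLRA1 a subunit of the glycine receptor. Each sequence runs 5′ to 3′ on the gene's strand, from 250 bases before the start to 50 after it, from RefSeq on GRCh38.p14, and capitals mark CpG dinucleotides. The coordinates are chr10:128126374-128126673 (minus strand) for MKI67, chr12:119178681-119178980 (plus strand) for HSPB8, chr5:1801157-1801456 (plus strand) for NDUFS6 and chr5:151924802-151925101 (minus strand) for GLRA1; all other coordinates here are hg19.
MKI67: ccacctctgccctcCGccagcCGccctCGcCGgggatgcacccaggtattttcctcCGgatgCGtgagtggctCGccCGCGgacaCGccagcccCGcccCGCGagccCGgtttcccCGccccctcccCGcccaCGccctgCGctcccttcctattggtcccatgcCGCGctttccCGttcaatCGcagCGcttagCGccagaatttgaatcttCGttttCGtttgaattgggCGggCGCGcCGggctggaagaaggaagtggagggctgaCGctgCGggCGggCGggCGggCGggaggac
HSPB8: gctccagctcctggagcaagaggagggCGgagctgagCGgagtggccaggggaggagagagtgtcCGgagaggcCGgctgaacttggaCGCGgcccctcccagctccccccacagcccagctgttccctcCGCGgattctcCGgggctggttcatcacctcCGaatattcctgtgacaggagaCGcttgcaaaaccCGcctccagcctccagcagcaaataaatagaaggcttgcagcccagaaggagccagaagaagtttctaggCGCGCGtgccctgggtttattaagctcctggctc
NDUFS6: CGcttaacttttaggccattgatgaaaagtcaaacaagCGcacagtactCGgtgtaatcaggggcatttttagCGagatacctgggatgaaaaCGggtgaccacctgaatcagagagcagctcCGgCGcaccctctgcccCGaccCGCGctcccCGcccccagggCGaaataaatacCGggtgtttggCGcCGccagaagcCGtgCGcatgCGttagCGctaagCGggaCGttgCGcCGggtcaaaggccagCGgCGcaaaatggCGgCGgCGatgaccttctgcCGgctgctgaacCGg
GLRA1: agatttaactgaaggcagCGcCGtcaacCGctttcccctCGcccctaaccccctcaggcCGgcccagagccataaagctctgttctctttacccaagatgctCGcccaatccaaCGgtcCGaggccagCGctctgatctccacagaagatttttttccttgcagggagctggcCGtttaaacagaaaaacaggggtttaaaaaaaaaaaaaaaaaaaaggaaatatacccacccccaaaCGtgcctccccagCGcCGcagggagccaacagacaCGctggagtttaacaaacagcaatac

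The MKI67 window held 36 CpG and had a GC content of 69.7%, and the NDUFS6 window held 30 CpG at 60.3%. HSPB8 held 15 CpG at 62.0% and GLRA1 14 at 51.3%. Over all 35116 windows of the same table and length, the median was 14 CpG and 58.7% GC. The first pair is thus CpG-rich and the second pair close to the median of the table. The letters CCAAT, searched on both strands, occurred 2 times in the MKI67 window, 1 time in that of GLRA1 and not in the other windows, and 34.6% of all windows hold them. The letters TATAAA occurred in none of the 4, against 11.5% of all windows. A comparison between classes of bins was void, since only 291 of the 534 genes that start in the chosen bins (54.5%) had a window in the table, below the 80% needed.

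Coverage was all or nothing. Each of the 746 bins was covered over its whole length in G2 and had no base in a G1 interval, because nearly all intervals start and end at multiples of 100 kb. Only 3 bins of the genome were partly covered in any stage, all at chromosome ends, and none of them was chosen. The nearest outside the threshold was the last bin of chromosome 7, with 38.7% of its length in a G2 interval and none in G1 or S.

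The chosen bins lay unevenly along the genome. Chromosome 2 held 89, chromosome 1 held 87, chromosome 5 held 78 and chromosome 10 held 67. These 4 chromosomes held 43.0% of the chosen bins and 28.1% of all bins. As a share of the bins covered in G2, they ran from 0.704% on chromosome 21, which held 1, to 31.0% on chromosome 12, which held 49. Of the 177 also in S, chromosomes 1, 2 and 5 held 24, 29 and 29, and chromosomes 14, 15, 19, 21 and 22 held none.

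**Figure D1:**
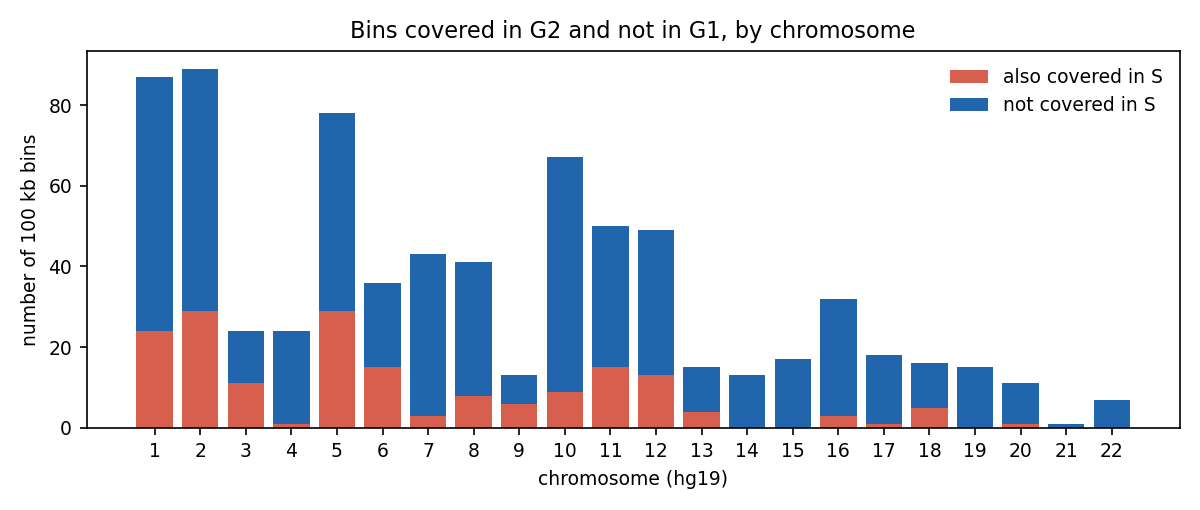
Number of 100 kb bins (vertical axis) covered in G2 and not in G1, by chromosome (horizontal axis), with bins also covered in S in red and the others in blue. Chromosomes 1, 2, 5 and 10 hold the most, and red parts are largest on chromosomes 1, 2 and 5.

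Chromosome ends held a large part of them. Of the 746 bins, 173 (23.2%) lay within 5 Mb of a chromosome end, against 7.64% of all bins and 7.33% of the kept bins, meaning bins covered in G1, S and G2. The share was 27.2% among those not in S and 10.2% among those in S. Chromosomes 7 and 5 gave 24 and 22 of these 173 bins, and 18 chromosomes gave at least 1. The bins covered in G1 and not in G2 had a share of 1.84%, while bins covered in G1 and G2 but not S had 18.3%.

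Joined into unbroken runs, the 746 bins made 254 runs, 106 of them a single bin and the longest 12 bins. Most bordered domains listed in G1: 193 runs (448 bins) had a bin covered in G1 on 1 side. Another 13 runs (45 bins) filled a gap with G1 coverage on both sides. The remaining 48 runs (253 bins, 33.9% of the chosen length) had G1 coverage on neither side. Edge runs were short, with a median of 1 bin, and runs apart from G1 coverage were longer, with a median of 5 bins. The nearest kept bin lay a median of 2350 kb from the runs apart, and 40 of these 48 lay more than 1 Mb from one.

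Bins covered in S lay nearer to the bins kept through all stages than bins not in S did. Of the 177 bins in S, 94 (53.1%) touched a kept bin and 149 (84.2%) lay within 5 bins of one. Of the 569 bins not in S, 51 (8.96%) touched a kept bin, 201 (35.3%) lay within 5 bins of one, and 298 (52.4%) lay more than 10 bins away. The share in S was 55.6% in gap-filling runs, 29.2% in edge runs and 8.30% in runs apart. Since the domain lists defined these bins, the shares are descriptions without a test. A kept bin is itself covered in S by definition, and an S interval can span several bins. Nearness to kept bins is thus partly built into the classes.

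**Figure D2:**
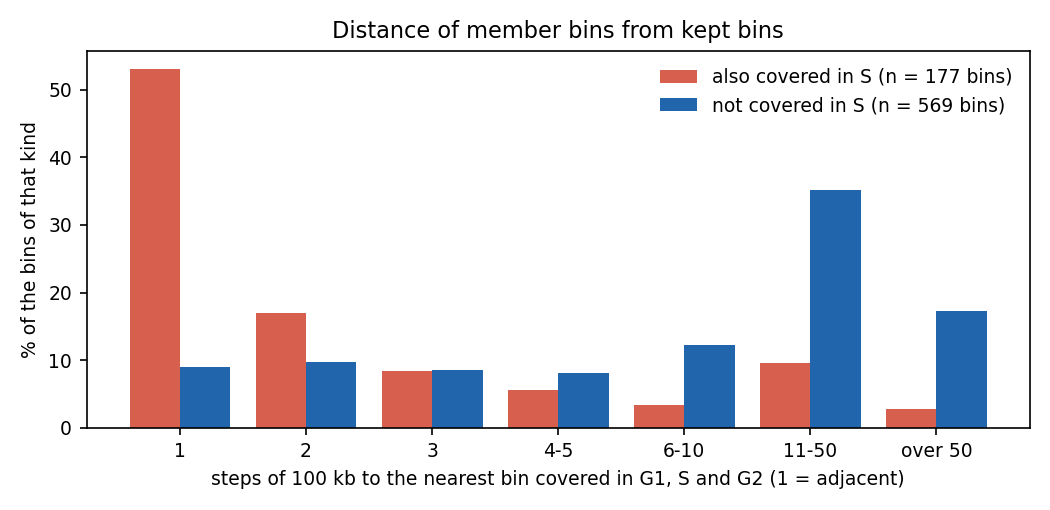
Share of bins (vertical axis, percent of each kind) by steps of 100 kb to the nearest bin covered in G1, S and G2 (horizontal axis), with bins also covered in S in red (177 bins) and bins not covered in S in blue (569 bins). The red bars peak at adjacent bins (53.1%), while 52.4% of the blue bins lie more than 10 steps away.

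Within a run, coverage in S also sat on the side of the domain. Of 27 edge runs that mixed bins in S and not in S, 26 had all their S bins as a single block next to the G1-covered side. None had them as a block on the far side, and 1 had another order. All 27 touched a kept bin, itself covered in S, so this order is also partly built into the classes. The 59 runs covered in S throughout touched a kept bin in 58 cases. Runs without any S coverage touched a kept bin in 48 of 162 cases (29.6%), and 71 of the 162 bordered a bin covered in G1 and G2 but not in S. No run bordered a bin covered in G1 and not in G2.

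The reverse set was counted from the same lists. With 1 list per stage, a moved domain and a difference in calling cannot be told apart in either set. Bins covered in G1 and not in G2 numbered 434, in 173 runs, of which 11 lay in gaps, 128 at an edge and 34 apart, placed in the same way by the bins covered in G2. Their edge runs too had a median of 1 bin.

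The chosen bins were richer in genes than the kept domains and poorer than the rest of the genome. They held 534 gene starts, or 7.16 per Mb, against 2.96 per Mb in kept bins, 2.42 in bins covered in G1 and not in G2, and 10.3 in bins never covered. Bins covered in G1 and G2 but not in S were close to the chosen bins, at 7.58 per Mb, as were bins covered in S alone, at 6.27. Those in S held 4.97 per Mb and those not in S 7.84. No gene started in 440 of the 746 bins (59.0%), against 59.7% of bins covered in G1 and G2 but not in S, 80.01% of kept bins and 50.2% of bins never covered. The chosen bins exceeded the kept bins in 19 of 22 chromosomes, the exceptions being chromosomes 1, 15 and 21, and stayed below bins never covered in 19, the exceptions being 4, 5 and 19. Never-covered bins include unassembled stretches; with bins left out that have no gene start within 10 bins on either side, their density was 11.1 per Mb.

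A single bin, chr19:54200001-54300000, held 36 gene starts, most of them microRNA genes of the chromosome 19 cluster. Without it the chosen bins held 6.68 starts per Mb, still between kept and never-covered bins. Such short RNAs are hardly measured by these libraries: 1 of the 79 chosen genes with a microRNA symbol passed the filter on low counts.

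Gene density rose in a step across the chosen bins from the domain to the outside. For edge runs, the 5 bins on the G1-covered side held 4.37 starts per Mb, the runs 6.96 and the 5 bins outside 12.5. Starts of genes expressed well enough to be tested in HEK293FT rose from 0.723 to 2.57 to 8.38 per Mb. Runs apart held 7.43 starts per Mb and 1.94 tested starts, against 15.8 and 9.69 in the 5 bins to either side. The first bin outside an edge run already held 11.6 starts per Mb.

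**Figure D3:**
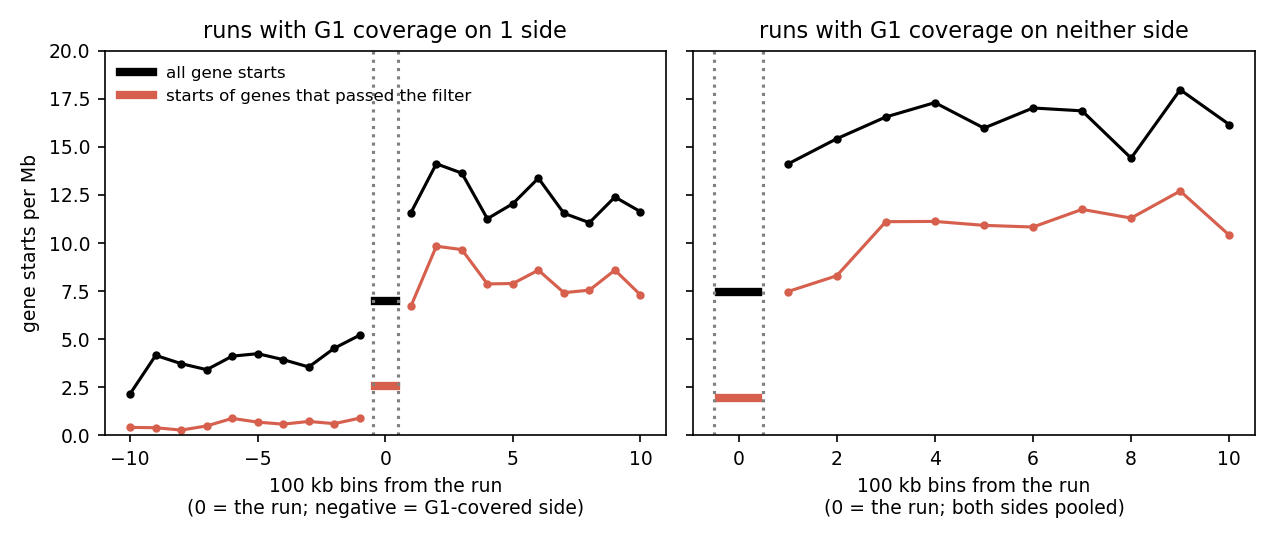
Gene starts per Mb (vertical axis) by distance in 100 kb bins from the run (horizontal axis, 0 for the run itself), for edge runs (left, negative values on the G1-covered side) and for runs apart (right, both sides pooled). Black shows all gene starts and red the starts of genes that passed the filter on low counts; thick bars give the runs, at 6.96 and 2.57 per Mb on the left and 7.43 and 1.94 on the right.

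Members of listed gene families were counted in these bins and in the kept domains, without a test. Of 392 olfactory receptor genes, a family known to sit in lamina-associated domains, 6 started in the chosen bins and 118 in kept bins. Zinc finger genes mostly encode DNA-binding proteins and often lie in clusters; the list, taken by symbol, also holds pseudogenes and antisense genes. Of its 607 genes 29 (4.78%) started in the chosen bins, against 2.07% of all 25773 genes placed. Kept bins held 75 (12.4%), against 5.16% of all genes, so a higher share was seen there too. None of the 29 lay in a bin covered in S, where 88 of the 534 chosen genes started. The 29 lay in 6 runs, on chromosomes 5, 7, 10 and 19, so they are not independent of each other. No keratin-associated gene (of 94) and no clustered protocadherin (of 57) started in the chosen bins. Of 392 solute carriers 11 did, and of 4146 genes with long non-coding symbols 135 did.

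Immune receptor genes of chromosome 19 were also present, a group chosen after its values were seen. Of 34 KIR and LILR genes, which encode receptors of natural killer and myeloid cells, 12 started in the chosen bins. None of the 12 passed the filter, and their counts summed over the 8 libraries ran from 0 to 5. These genes are near-identical copies, so counts can be split between them.

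The RNA of the chosen bins was low but not absent. Of the 534 genes, 155 had no count in any library and 182 passed the filter (34.1%, 95% Wilson interval 30.2 to 38.2). Of 88 genes in S bins 22 passed (interval 17.1 to 35.0), and of 446 not in S 160 passed, or 35.9% (31.6 to 40.4). The share was 15.7% (13.9 to 17.8) in kept bins and 22.3% (18.0 to 27.2) in bins covered in G1 and G2 but not in S. It was 29.5% (21.6 to 38.8) in bins covered in G1 and not in G2, and 65.0% (64.4 to 65.6) in bins never covered. Without microRNA symbols the share in the chosen bins was 39.8% of 455 genes, against 16.9% in kept and 68.8% in never-covered bins. Intervals cover counting error only.

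Tested genes had a median nuclear level of 3.85 RPKM, meaning TMM-scaled CPM per kb of exon. The same median was 2.15 RPKM in kept bins and 6.67 RPKM in never-covered bins. In bins covered in G1 and G2 but not in S it was 3.82 RPKM, close to the chosen bins. In bins covered in G1 and not in G2 it was 1.44 RPKM. Summed over all 534 genes, the nuclear libraries held 4376 and 4282 CPM and the cytosolic ones 4890 and 5352. The native lamina held 5032 and 5002 CPM and the PFA lamina 4601 and 4132. The native lamina sums lay above both nuclear sums, and the PFA sums, of which replicate 1 is the higher, lay on either side of them. Genes of never-covered bins showed the same order, with native lamina sums of 739110 and 711640 CPM against 571870 and 637910 in the nuclear fraction. MKI67 alone made up 6.69% and 6.14% of the chosen genes' sum in the nuclear and 9.72% and 16.7% in the native lamina libraries. As a share of all counts the genes took 0.401% ± 0.0425 (SD, n = 2) in the nuclear fraction and 0.566% ± 0.000590 (SD, n = 2) at the native lamina. Genes of never-covered bins took 55.9% ± 0.744 and 81.8% ± 1.76 (SD, n = 2) of all counts, so a higher share at the native lamina was seen there too. Per Mb, the nuclear sum was 58.0 ± 0.892 CPM, against 9.18 ± 0.881 in kept bins and 267 ± 20.6 in never-covered bins (SD, n = 2).

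The highest nuclear levels among these genes belonged to RPL38 and RPS7, which encode ribosomal proteins. RPL38 had 182 and 288 RPKM in the nuclear libraries, and RPS7 45.5 and 68.2. Both families have processed copies elsewhere in the genome, so their counts are uncertain. INSIG1, a sterol-regulated protein of the endoplasmic reticulum, had 13.3 RPKM in nuclear replicate 1 and 91.4 in replicate 2, and 30.0 and 186 in the cytosolic libraries. Its groups overlapped, and no difference was called (edgeR adjusted p = 0.265).

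Next in nuclear level came APMAP, a membrane-bound arylesterase, RAN, the small GTPase of nuclear transport, and LPCAT1, an acyltransferase of phospholipid synthesis. Mean nuclear levels were 41.0 ± 2.60 RPKM for APMAP, 33.7 ± 10.3 for RAN and 33.1 ± 4.24 for LPCAT1 (SD, n = 2). CLPTM1L, a membrane protein, had 28.0 ± 5.66 RPKM, and NCAPD3, a subunit of condensin II, 22.8 ± 2.42. MKI67 had 22.2 ± 1.69 and NSUN2, an RNA methyltransferase, 21.4 ± 0.744. The last 3 differed by less than the SD of NCAPD3. NSUN2 overlaps SRD5A1 in the annotation, and overlapping genes share reads here. All 10 start in bins not covered in S, as do 446 of the 534 chosen genes and 160 of the 182 tested.

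Among the chosen genes, as among all genes, more were called higher in nuclear than in cytosolic RNA than were called lower. With edgeR's quasi-likelihood test and Benjamini-Hochberg adjustment, 44 of the 182 tested genes were higher in the nuclear fraction (24.2%), and 26.1% of all 16504 genes tested were. Lower in the nuclear fraction were 24 (13.2%), against 21.2% of all genes. The median log2 fold change was 0.38 over the chosen genes and 0.13 over all genes. Without PFA lamina replicate 1 the counts were 61 higher and 32 lower, with 29.8% and 24.4% of all genes. With any 1 nuclear or cytosolic library left out, fewer were called higher, among the chosen genes and among all genes alike. Genes could pass the filter through the nuclear libraries alone. With at least 10 counts in every library instead, 28 of 116 were higher and 22 lower, against 23.6% and 21.7% of all genes.

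GLRA1 and CST7 were among the genes that headed the nuclear side. GLRA1, whose start lies in a run of 2 bins covered in S that touches a kept domain, had 4.53 and 4.72 RPKM in the nuclear libraries and no count in either cytosolic one. Its nuclear level was at least 16.3-fold above the cytosolic floor of 3 counts per library. CST7, which encodes cystatin F, had 4.52 and 3.88 RPKM in the nuclear libraries and no cytosolic count, which makes it at least 7.54-fold higher in the nucleus. The edgeR adjusted p was 0.0011 for GLRA1 and 0.00598 for CST7. Both were picked as large changes among genes already called, and could pass the filter through the nuclear libraries. That their groups did not overlap follows from this choice and adds no support.

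LOC729603 was also on this side, with nuclear levels of 8.70 and 7.24 RPKM against 0.598 and 0.405 in the cytosol. Its log2 fold change was 3.94 ± 0.71 (SE, edgeR adjusted p = 0.00134); it overlaps IGF2R. The pseudogene CTAGE7P had 4.35 and 3.83 RPKM against 0.520 and 0.299, and its log2 fold change was 3.25 ± 0.73 (SE, edgeR adjusted p = 0.00358). It overlaps LINC00959 and has paralogs. Neither gene's groups overlapped, which adds no support, as both were picked among called genes.

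On the cytosolic side stood RPL38, HSPB8, NDUFS6, ZNF354C and RAN. RPL38 had 1243 and 1605 RPKM in the cytosolic libraries, and its log2 fold change of nuclear against cytosolic RNA was -2.60 ± 0.40 (SE, edgeR adjusted p = 0.000801). HSPB8 had 20.8 and 24.7 RPKM in the cytosolic and 2.80 and 5.24 in the nuclear libraries, and a log2 fold change of nuclear against cytosolic RNA of -2.50 ± 0.35 (edgeR adjusted p = 0.000624). NDUFS6 had 99.5 and 108 RPKM against 15.3 and 21.6, and RAN 144 and 174 against 26.4 and 41.0. ZNF354C had 2.74 and 2.93 against 0.585 and 0.587. The 2 groups did not overlap in any of the 5. These were picked as the largest changes among called genes, so the lack of overlap adds no support. The edgeR adjusted p was 0.00154 for NDUFS6, 0.000864 for RAN and 0.00191 for ZNF354C.

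At the native lamina only 5 chosen genes were called against the nuclear fraction. Higher were 3 of 182 (1.65%; 3.87% of all genes), namely HSPB8, MKI67 and REPIN1, and lower were 2 (1.10%; 3.44% of all genes), namely RBFOX3 and PGBD3. The median log2 fold change was -0.19, against -0.07 over all genes and -0.19 over genes of kept bins. It was -0.60 in bins covered in G1 and not in G2, and -0.20 in bins covered in G1 and G2 but not in S. Scaling by total counts alone moved the median of all genes by 0.28. It gave 12 higher and 0 lower, with 10% and 1.44% of all genes. Both lamina comparisons share the nuclear libraries, which also enter the comparison with the cytosol, so their values are set side by side only.

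None of 41 listed G1/S genes started in a chosen bin. MKI67 was the single gene of the 52 listed G2/M genes that did (1.92%), near the 2.07% of all placed genes. It lies on the minus strand at chr10:129894925-129924468, in an edge run of 10 bins (chr10:129100001-130100000) that touches a kept domain and holds no bin in S. Its level was 39.1 and 67.0 RPKM at the native lamina and 23.4 and 21.04 in the nuclear fraction. In the cytosolic libraries it was 19.98 and 20.7, and at the PFA lamina 13.4 and 16.5. Both native lamina libraries thus stood above all 6 others.

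The log2 fold change of MKI67 at the native lamina was 1.25 ± 0.32 (SE, edgeR adjusted p = 0.0373). At the PFA lamina it was -0.57 ± 0.32 (edgeR adjusted p = 0.219). The native call was lost under upper-quartile factors (adjusted p = 0.0569) and when either nuclear library (0.224 without replicate 1, 0.191 without replicate 2), either cytosolic library (0.0599, 0.0582) or native lamina replicate 2 (0.236) was left out, while the log2 fold change stayed between 0.83 and 1.61 over all these fits and those that kept the call.

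HSPB8 lies in a run apart from G1 coverage, chr12:119000001-120000000, of whose 10 bins 5 were covered in S, though not the bin of its start. Its level was 13.8 and 10.4 RPKM in the native and 24.6 and 24.4 in the PFA lamina libraries, above both nuclear values of 2.80 and 5.24. The log2 fold change was 1.60 ± 0.34 at the native lamina (SE, edgeR adjusted p = 0.022) and 2.61 ± 0.35 at the PFA lamina (edgeR adjusted p = 0.00372). The cytosolic values, 20.8 and 24.7, lay in the same range as the PFA values. The native call was lost without nuclear replicate 1 (adjusted p = 0.224), nuclear replicate 2 (0.0723) or native lamina replicate 1 (0.117), and the PFA call without nuclear replicate 1 (0.0815).

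REPIN1, a zinc finger protein named for replication initiation, had 13.3 and 13.7 RPKM in the nuclear and 29.6 and 27.5 in the cytosolic libraries. Levels were 28.1 and 27.97 for the native lamina, then 36.2 and 37.8 for the PFA lamina. Its log2 fold change was 1.06 ± 0.26 at the native lamina (SE, edgeR adjusted p = 0.0318) and 1.46 ± 0.26 at the PFA lamina (edgeR adjusted p = 0.00753). The PFA call was lost without nuclear replicate 1 (adjusted p = 0.102) or 2 (0.0508) and kept without PFA lamina replicate 1 (0.0131). The nuclear fraction was the lowest of the 4 groups for REPIN1 and for HSPB8.

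RBFOX3, the neuronal splicing regulator known as NeuN, had 3.48 and 4.06 RPKM in the nuclear fraction, 0.939 and 0.608 in the cytosol, 0.764 and 0.753 at the native lamina, then 0.649 and 1.76 with PFA. Its log2 fold change at the native lamina was -2.30 ± 0.56 (SE, edgeR adjusted p = 0.0317). The 2 nuclear libraries stood above the other 6. PGBD3, derived from a piggyBac transposase, had 4.05 and 4.02 RPKM in the nuclear fraction and 0.872 and 1.17 at the native lamina, and its log2 fold change there was -1.98 ± 0.51 (SE, edgeR adjusted p = 0.0387). PGBD3 lies within ERCC6, a repair gene, and reads in shared exons were counted for both. ERCC6 itself had a log2 fold change of -0.22 at the native lamina (edgeR adjusted p = 0.643).

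None of the 5 native lamina calls held without nuclear replicate 1 or without nuclear replicate 2, where edgeR called 0 genes in either direction; at an unadjusted p under 0.05, 13 were higher and 7 lower without replicate 1, and 15 and 12 without replicate 2. Without native lamina replicate 1 or 2, edgeR called 1 higher and 0 lower, with 12 and 9 lower at an unadjusted p under 0.05, and without cytosolic replicate 1 PGBD3 was lost (adjusted p = 0.0513). With all libraries, the unadjusted counts were 19 and 17, and DESeq2 called 3 higher and 3 lower. Without PFA lamina replicate 1, edgeR called 13 higher and 12 lower, with 9.53% and 12.5% of all genes.

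At the PFA lamina, 12 of the 182 genes were higher than in the nuclear fraction (6.59%; 9.63% of all genes) and 9 were lower (4.95%; 7.81% of all genes). The median log2 fold change was -0.31, against -0.04 over all genes and -0.37 over genes of kept bins. It was -0.40 in bins covered in G1 and not in G2, and -0.28 in bins covered in G1 and G2 but not in S. Without PFA lamina replicate 1, 6 were higher and 1 was lower, with 2.70% and 1.48% of all genes. Without nuclear replicate 1 edgeR called 0 in either direction (16 higher and 13 lower at an unadjusted p under 0.05), and without nuclear replicate 2 it called 2 and 1; with all libraries DESeq2 called 11 and 11. Without PFA lamina replicate 2 edgeR called more in both directions, and without either cytosolic library it called fewer lower. All genes moved the same way. Total counts alone moved the median of all genes by 0.17 and gave 13 higher and 1 lower, with 11.5% and 3.1% of all genes. Upper-quartile factors moved it by -0.16 and gave 10 and 13, with 7.11% and 9.72% of all genes. The higher genes were led by HSPB8 and NDUFS6, with LRRC61, ZNF444 and REPIN1.

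NDUFS6 had 114 and 55.7 RPKM at the PFA lamina, above both nuclear values of 15.3 and 21.6, and 57.5 and 20.97 at the native lamina. Its log2 fold change at the PFA lamina was 2.22 ± 0.46 (SE, edgeR adjusted p = 0.0111), and 1.60 without PFA lamina replicate 1, where the adjusted p was 0.0551. It was also lost without nuclear replicate 1 (0.129) or 2 (0.052). It lies in an edge run of 10 bins, chr5:1200001-2200000, with LPCAT1 and CLPTM1L. LRRC61, a leucine-rich repeat gene, had 23.4 and 16.9 RPKM at the PFA lamina against 6.34 and 6.65 in the nuclear fraction, and ZNF444, a zinc finger gene, had 24.2 and 20.5 against 7.16 and 7.41. The edgeR adjusted p was 0.00913 for LRRC61, which overlaps ACTR3C and ZBED6CL, and 0.00754 for ZNF444. For all 3 genes the PFA libraries lay above the nuclear ones, which adds no support, as they were picked among called genes. Without nuclear replicate 1 the adjusted p was 0.115 for LRRC61 and 0.1 for ZNF444, and without nuclear replicate 2 it was 0.0568 for LRRC61 and 0.0498 for ZNF444. Both stayed called without PFA lamina replicate 1 (0.041 and 0.0235).

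Among the lower genes, GLRA1 had 0.102 and 1.21 RPKM at the PFA lamina and 0.628 and 0.809 at the native lamina, below its nuclear values. Its PFA counts were 1 and 6. The log2 fold change at the PFA lamina was -3.07 ± 0.88 (SE, edgeR adjusted p = 0.0344), and -1.91 (adjusted p = 0.165) without PFA lamina replicate 1. Without nuclear replicate 1 or 2 the adjusted p was 0.179 or 0.144. ZNF701, another zinc finger gene, had 0.462 and 0.394 RPKM against 2.87 and 2.46 in the nuclear fraction, and its log2 fold change was -2.61 ± 0.53 (edgeR adjusted p = 0.0101, and 0.109 without nuclear replicate 1). LOC103611081, CTAGE7P and PGBD3 were also lower, with log2 fold changes of -2.57, -2.19 and -1.68, and none of these 3 stayed called without PFA lamina replicate 1. Of the 9 lower genes, ZNF701 alone stayed called without that library.

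**Figure D4:**
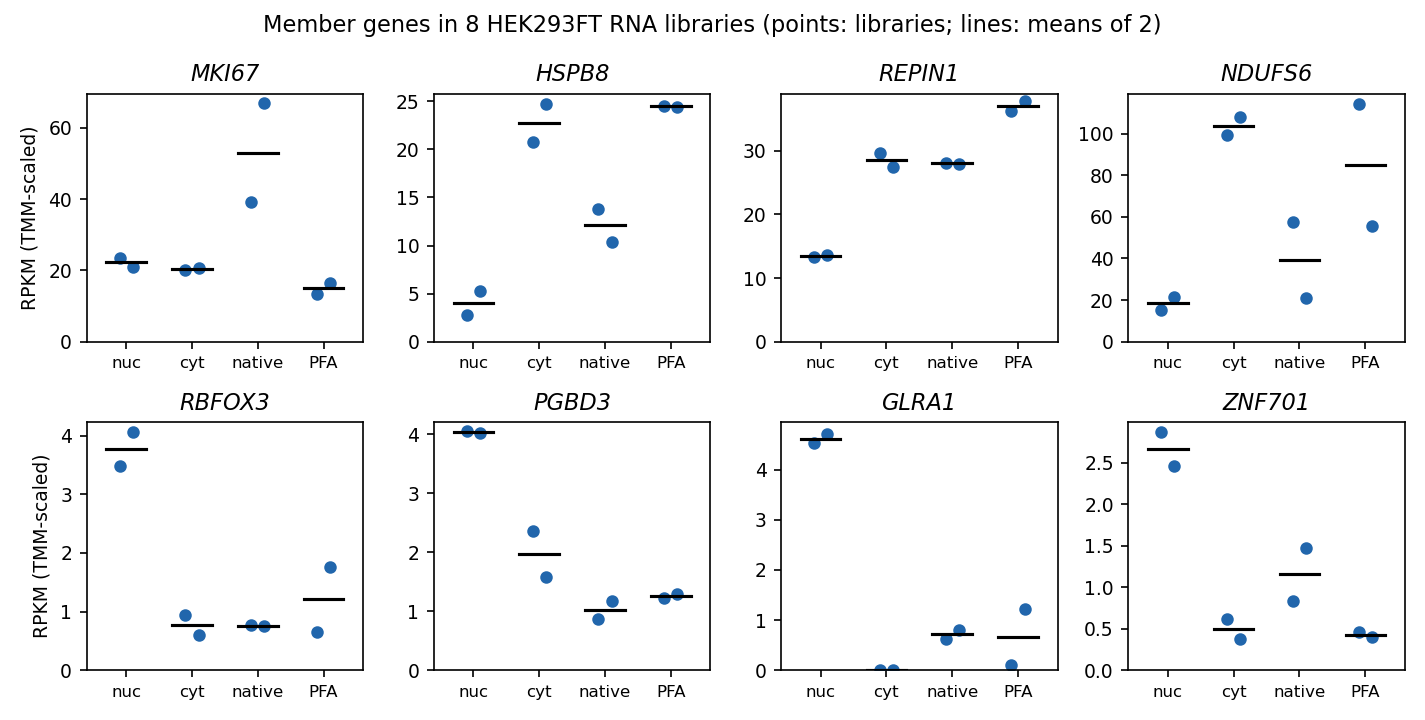
Level in RPKM (vertical axes, each from 0) of 8 genes that start in the chosen bins, in the nuclear (nuc), cytosolic (cyt), native lamina and PFA lamina libraries; points are libraries and lines the means of 2. MKI67 is highest in both native lamina libraries (39.1 and 67.0), HSPB8, REPIN1 and NDUFS6 are lowest in the nuclear fraction on average, and RBFOX3, PGBD3, GLRA1 and ZNF701 are highest in it.

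Of 22 tested genes in S bins, 7 (31.8%) were called higher in nuclear than in cytosolic RNA, against 26.1% of all genes. Called lower was 1 (4.55%), against 21.2%. Called or not, 15 (68.2%) had a log2 fold change above 0, against 53.7% of all genes. The 7 became 2 without nuclear replicate 1 and 3 without cytosolic replicate 2, and stayed 7, with 2 lower, without PFA lamina replicate 1. At the native lamina edgeR called 0 of 22 in either direction, with 1 higher and 2 lower at an unadjusted p under 0.05, while DESeq2 called 0 higher and 1 lower. Without PFA lamina replicate 1 edgeR called 1 higher and 1 lower of 25. At the PFA lamina it called 0 higher and 1 lower (GLRA1), with 1 and 5 at an unadjusted p under 0.05; DESeq2 likewise gave 0 and 1, and without PFA lamina replicate 1 edgeR called 0 in either direction (1 higher and 4 lower at an unadjusted p under 0.05). Of the 22 tested zinc finger genes, 5 were called higher in the nucleus and 4 in the cytosol, and for PFA against nuclear RNA 2 rose and 1 fell. These shares lie near those of all genes (26.1%, 21.2%, 9.63% and 7.81%). Without PFA lamina replicate 1 the counts were 6 and 5, then 1 and 1, and without nuclear replicate 1 they were 2 and 3, then 0 and 0 (3 higher and 2 lower at an unadjusted p under 0.05). At the native lamina edgeR and DESeq2 called 0 of these in either direction, with 3 higher and 2 lower at an unadjusted p under 0.05 by each tool. There edgeR called 2 higher and 1 lower without PFA lamina replicate 1 and likewise without replicate 2, 3 higher and 0 lower under total counts (0 lower at an unadjusted p under 0.05), and 3 higher and 1 lower with only the 4 libraries compared.

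**Figure D5:**
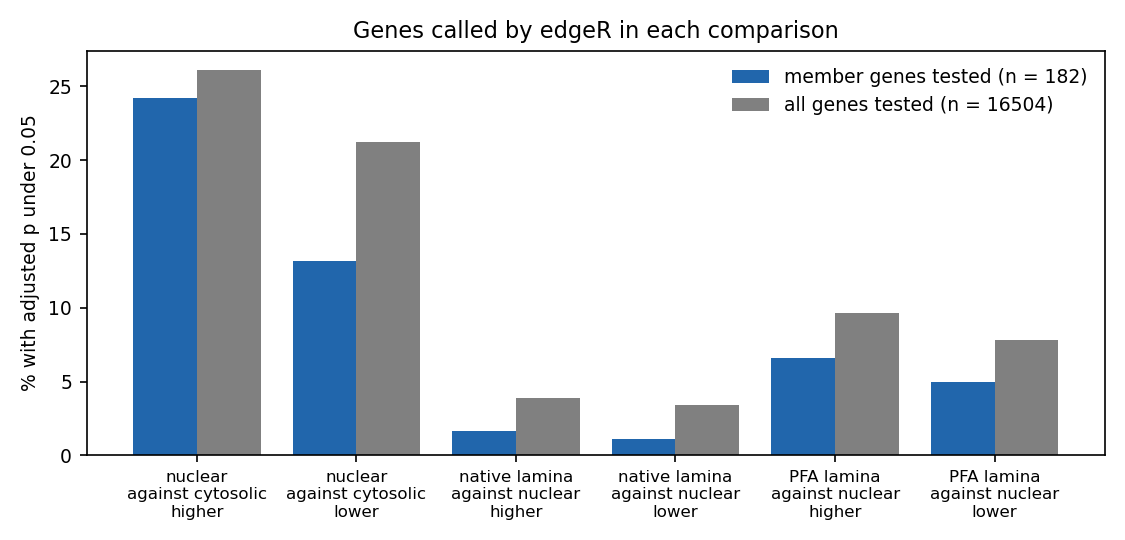
Percent of genes with an edgeR adjusted p under 0.05 (vertical axis) in each comparison and direction (horizontal axis), for the 182 tested genes that start in the chosen bins (blue) and all 16504 tested genes (grey). The blue bars lie below the grey ones in all 6, with the widest gap for genes lower in nuclear RNA than in the cytosol (13.2% against 21.2%). With at least 10 counts in every library, 28 of 116 were higher and 22 lower in nuclear than in cytosolic RNA. The shares of all genes were then 23.6% and 21.7%. How the RNA level of the chosen genes bears on these gaps was not tested.

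The longest runs show how mixed the gene content is. Among runs with every bin in S, the longest, chr2:1400001-1900000, fills a gap between kept bins and holds the start of PXDN, peroxidasin of the extracellular matrix. PXDN had 10.7 and 9.41 RPKM in the nuclear fraction, 3.98 and 4.35 in the cytosolic, 9.96 and 10.8 in native and 4.83 and 7.47 in PFA lamina libraries. Its log2 fold change of nuclear against cytosolic RNA was 1.27 ± 0.29 (SE, edgeR adjusted p = 0.00384). The other long runs of this kind were chr11:116200001-116600000, chr12:97500001-97900000 with the neural RNA gene RMST, chr18:34800001-35200000 with the RNA-binding protein gene CELF4, and chr1:209100001-209400000, all at the edge of a kept domain. RMST had no count, and of the genes in these 4 runs only CELF4 passed the filter.

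Among runs without S, chr5:177700001-178900000 lies apart, with never-covered bins on both sides, and holds 11 gene starts, 6 of them zinc finger genes. ZNF354B had 8.78 and 4.61 RPKM in the nuclear libraries against 1.46 and 1.35 in the cytosolic, and ZFP2 had 1.67 and 1.20 against 0.0551 and 0.261. Both were higher in the nucleus (edgeR adjusted p = 0.00323 for ZNF354B and 0.0107 for ZFP2), though without nuclear replicate 1 the adjusted p was 0.0548 and 0.0776, and for ZFP2 0.0931 without cytosolic replicate 1, while their neighbour ZNF354C was higher in the cytosol. CLK4, a kinase of splicing factors in the same run, had a log2 fold change of 1.08 ± 0.40 towards the nucleus (SE, edgeR adjusted p = 0.0408), lost when any 1 nuclear, cytosolic or native lamina library was left out (0.0609 to 0.229). The genes are paralogs, so reads can be split among them.

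The run chr10:49900001-51000000, also apart, holds 15 gene starts of which 4 passed the filter. CHAT, the acetylcholine-synthesising enzyme, had 1 count in each nuclear library and none elsewhere, while OGDHL, a subunit of an oxoglutarate dehydrogenase complex, had 6.07 and 5.90 RPKM in the nuclear fraction. At the end of chromosome 11, chr11:133800001-134900000 holds 13 starts, of which 11 passed. It includes NCAPD3, which had 21.1 and 24.6 RPKM in the nuclear fraction, and JAM3, a junctional adhesion molecule, at 20.8 and 20.1. THYN1 and VPS26B, a retromer subunit, were higher in the cytosol (edgeR adjusted p = 0.00101 and 0.00471) and ACAD8, a mitochondrial dehydrogenase, in the nucleus (0.00646, and 0.0614 without cytosolic replicate 2). Silent and expressed genes thus occurred in runs of like length.

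In chr4:8000001-9200000, an edge run of 12 bins beside bins covered in G1 and G2 but not in S, 6 of 9 genes passed the filter; TRMT44, a tRNA methyltransferase, had 11.1 and 12.3 RPKM in the nuclear and 2.53 and 3.26 in the cytosolic libraries. In chr2:217600001-218600000, 10 bins apart from G1 coverage with the sperm protein gene TNP1, none of 4 genes passed. In chr5:168900001-170100000, 11 of 12 bins were covered in S, and SPDL1, a spindle protein, was the 1 gene of 12 that passed, at 7.86 and 5.91 RPKM in the nuclear fraction. In chr11:112200001-113400000, with 4 of 12 bins in S, the adhesion gene NCAM1 had 6.52 and 4.70 RPKM in the nuclear and 1.04 and 1.76 in the cytosolic libraries. Its log2 fold change was 2.02 ± 0.33 (SE, edgeR adjusted p = 0.000927). NCAM1 overlaps antisense and non-coding genes, and strand was ignored in counting. The neighbouring dopamine receptor gene DRD2 had 5 or fewer counts in every library.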

How the data were processed

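The authors deposited read counts per gene for 8 HEK293FT libraries, made with featureCounts (Subread 1.5.2) on hg19 and RefFlat, per the file headers. Strand was ignored and reads overlapping several genes were counted for each, per the same headers. The submitters' processing notes also name TopHat2 2.1.1 and Bowtie2 2.3.2 without a role. The domain intervals are the authors' deposited lists without scores, while the caller, and how replicates became a consensus, is not given in the sources used here. The header of cytosolic replicate 1 gives an output name of a nuclear library; it was kept as labelled.

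Coverage was computed per 100 kb bin, and genes were placed by their transcription start. Of 27630 genes, 682 with features on more than 1 chromosome or strand were not placed. Counts were filtered with filterByExpr and tested by quasi-likelihood in edgeR 4.0.16 under R 4.3.3, scaled by TMM, with all 8 libraries fitted together and no block, adjusted by Benjamini-Hochberg over 16504 genes at 0.05, and the script was tested on simulated data. A gene's RPKM used TMM-scaled counts and exonic length. Genes were named by rule: per comparison and direction the 5 largest changes among called genes of at least 300 exonic bases and 20 counts in both libraries of the group that was higher, the 10 highest nuclear RPKM, genes of the longest runs, and listed cell cycle genes; others named were chosen after their values were seen. Members and lists were chosen with earlier results of these data known. Alternatives were other scaling factors, filters, DESeq2 1.42.0, a replicate block, fewer libraries, other bin sizes, grids and coverage rules. H3K9me3, K562 and signal data were not analysed here. The K562 samples could not be placed in a group. Some genes that the naming rule selects are not reported here.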

Additional observations from a re-analysis of the deposited data

How the results depend on the processing

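Since domain intervals lie on multiples of 100 kb, 50 kb bins and the other coverage rules could hardly change the bins and say nothing about stability. With 200 kb bins there were 199 runs against 254, 77 Mb against 74.6 and 8.34 gene starts per Mb against 7.16, and with a grid shifted by 50 kb 254 runs, 78.1 Mb and 7.89 starts per Mb. The share of member length next to a bin covered in G1 moved to 60.8% with 200 kb bins and 61.5% with a grid shifted by 50 kb, and the share of genes passing the filter to 40.7%, 41.1% and, at 10 counts in every library, 21.7%. Leaving out 1 library at a time, the genes called by edgeR ranged from 21 to 62 (higher) and 16 to 32 (lower) for nuclear against cytosolic RNA, from 0 to 13 and 0 to 12 at the native lamina, and from 0 to 22 and 0 to 25 at the PFA lamina. The PFA counts of 0 came without nuclear replicate 1, where 16 were higher and 13 lower at an unadjusted p under 0.05, and the highest came without PFA lamina replicate 2. At the native lamina, total counts without further scaling gave 12 higher and 0 lower (3 at an unadjusted p), with 10% and 1.44% of all genes. No filter gave 7 and 5, with 5.24% and 6.21% of all genes. Only the 4 libraries compared gave 15 and 16, with 12.5% and 14.6% of all genes. A minimum of 10 counts gave 0 lower (13 at an unadjusted p), against 4.27% of all genes. Genes wholly inside member bins gave 1 lower. At the PFA lamina, the 4 libraries alone gave 5 higher and 1 lower, with 2.19% and 1.54% of all genes. Total counts gave 1 lower there, with 3.1% of all genes. For nuclear against cytosolic RNA, a minimum of 10 counts, with 116 of the genes tested, gave 28 higher and 22 lower. The shares of all genes were 23.6% and 21.7%. The cause of these shifts was not tested beyond the fewer genes or libraries that the alternatives themselves use. Replicates share only a number in the labels, and deviations of same-numbered libraries correlated between -0.07 and 0.32; with a replicate block the native lamina gave 5 lower. Where 1 library of a group was left, it was assumed to vary like the other groups. Total counts ran from 2321291 (PFA lamina replicate 2) to 8557777, and the effect of depth was not tested.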
